A study of Mus musculus with 5 samples.

Results

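The genes described are those of the translation initiation factors of the mouse, taken as every symbol of the deposited tables that starts with Eif and a digit from 1 to 6, without the eIF2 kinase genes and without 1 further symbol. They number 53 of the 22026 symbols listed. The rule works on names, so it also takes in 4 argonaute genes of the RNA silencing machinery under their older symbols (Eif2c1 to Eif2c4) and the inhibitors of the cap-binding factor. Transcript levels come from RNA-seq of 4-cell mouse embryos of the strain B6D2F1. All were produced by nuclear transfer, in which an enucleated oocyte receives the nucleus of another cell. There is 1 library for each of 5 groups. The first is a knockdown of the histone variant H3.3 plus mRNA for H3.3, and the second such a knockdown plus mRNA for H3.2. The third is the knockdown of H3.3 by itself. A library from embryos that received luciferase and one from untreated embryos are the controls. The second library carries labels that disagree, H3.2 mRNA in its title and H3.3 mRNA in its treatment tag. Here it goes by its title, and every value given for H3.2 mRNA depends on that. The sources used here do not name the donor cell or how the knockdown was made. The series title concerns H3.3 as a maternal factor in reprogramming by the oocyte. No difference below has a replicate behind it, and none has a p-value.

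Initiation is the step at which a ribosome is brought to the start codon of an mRNA. The factor eIF2 carries the initiator tRNA to the small ribosomal subunit and is recharged with GTP by eIF2B. The large complex eIF3 binds the small subunit, keeps it from joining the large one too early and helps to recruit the mRNA. The complex eIF4F binds the cap of the mRNA through eIF4E, unwinds it with the helicase eIF4A and bridges it to eIF3 through the scaffold eIF4G, while eIF1, eIF1A, eIF5 and eIF5B govern the choice of the start codon and the joining of the large subunit. In oocytes and early embryos much mRNA is stored by the mother and is translated or kept silent through the cap and the poly(A) tail.

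Values are the authors' FPKM estimates, which count fragments relative to transcript length and to the reads mapped in the library. The sequencing depth is unknown. Of the 22026 symbols, between 10443 and 12300 were above 0 in a library. The H3.3 genes H3f3a and H3f3b summed to 467 FPKM with H3.3 mRNA, 420.1 FPKM with H3.2 mRNA and 664 FPKM in the knockdown, against 5734 FPKM with luciferase and 5266 FPKM in untreated embryos, so the H3.3 mRNA named by the label is not seen in these gene values. Of 7 early embryo marker genes, 4 to 6 were above 0 in each library, and Cdx2 was listed at 0 in all 5. The 7 summed to 9889 FPKM with H3.3 mRNA, 5389 with H3.2 mRNA, 21993 in the knockdown, 13308 with luciferase and 18312 in untreated embryos. Of 7 genome activation markers, 3 were listed. These summed to 139 FPKM with H3.3 mRNA, 118 with H3.2 mRNA, 15.9 in the knockdown, 7.99 with luciferase and 402 in untreated embryos. The part of either list in the differences below was not tested. Fibroblast markers summed to at most 68.7 FPKM over 9 genes, with Col1a1, Col3a1, Thy1, Pdgfrb, Dcn and Lum at 0 everywhere. The 10 cumulus and granulosa markers summed to 459.6 FPKM with H3.3 mRNA, 538 FPKM with H3.2 mRNA, 1076 FPKM in the knockdown, 479 FPKM with luciferase and 332 FPKM in untreated embryos, with Has2, Ptx3, Amh, Fshr and Inhba at 0 in each library. The 14 oocyte and maternal markers differed between libraries, with 1627 FPKM with H3.3 mRNA, 1802 FPKM with H3.2 mRNA, 1992 FPKM in the knockdown, 561 FPKM with luciferase and 5482 FPKM in untreated embryos, and their part in the differences below was not tested. In these bulk libraries, fewer cells of a kind and less RNA in each cell cannot be told apart.

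The initiation factor genes were among the most abundant transcripts. Their median was 778 FPKM with H3.3 mRNA, 712 FPKM with H3.2 mRNA, 704 FPKM in the knockdown, 867 FPKM with luciferase and 847 FPKM in untreated embryos. Over the 13144 genes that averaged 1 FPKM or more, the median lay between 36.2 and 46.2 FPKM. From 19 members in the knockdown to 24 with luciferase stood at 1000 FPKM or more, which is 35.8% to 45.3% of the members, while 3.36% to 6.09% of all genes past that minimum did so. The members took 2.42% of the summed FPKM with H3.3 mRNA, 2.29% with H3.2 mRNA, 2.09% in the knockdown, 2.64% with luciferase and 2.09% in untreated embryos. Eif5a, a hypusine-carrying factor that helps ribosomes through difficult peptide bonds, was the most abundant member in every library, at 10323 FPKM with H3.3 mRNA, 7949 with H3.2 mRNA, 11963 in the knockdown, 24387 with luciferase and 10865 in untreated embryos. The luciferase library stood apart, and without Eif5a the share of the members was 2.08% with H3.3 mRNA, 1.97% with H3.2 mRNA, 1.76% in the knockdown, 1.93% with luciferase and 1.79% in untreated embryos.

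**Figure D1:**
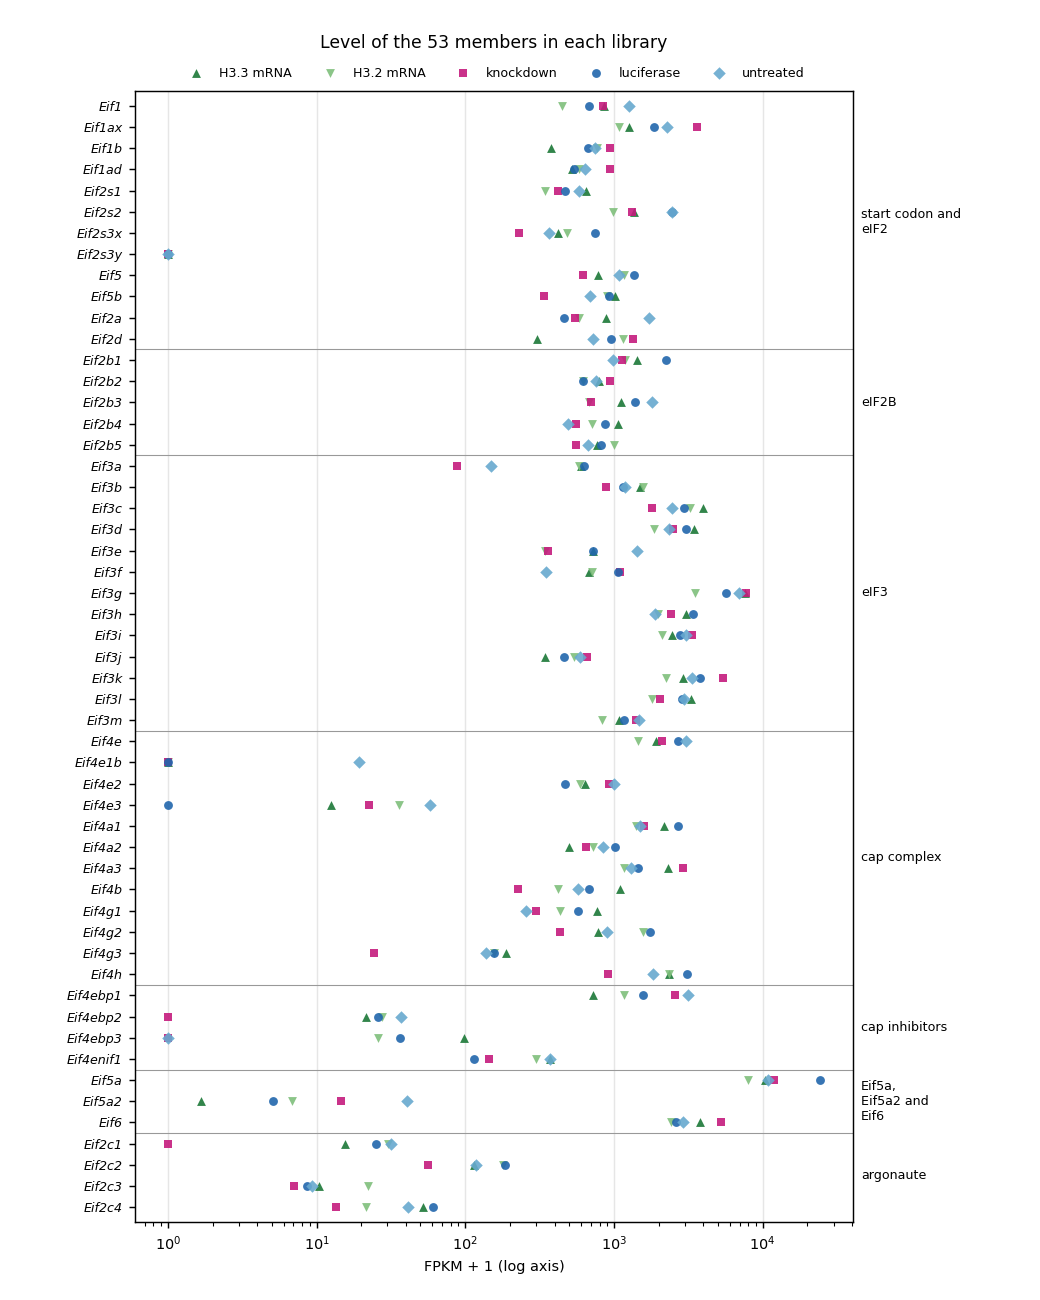
FPKM plus 1 on a log axis for each of the 53 members, grouped by role, with 1 symbol per library; a gene listed at 0 sits at 1. From 41 members in the knockdown to 44 in each other library stand at 100 FPKM or more, while Eif2s3y sits at 0 in all 5 and 5 further members at 0 in some.

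Of the 53 members, 47 were above 0 in every library. Eif2s3y, the Y-linked copy of the eIF2 gamma gene, was listed at 0 in all 5. Its X-linked partner Eif2s3x stood at 418 FPKM with H3.3 mRNA, 485 with H3.2 mRNA, 230.1 in the knockdown, 749 with luciferase and 364 in untreated embryos. Listed at 0 in some libraries were Eif4e1b, Eif4e3, Eif4ebp2, Eif4ebp3 and Eif2c1. In the knockdown 5 members were at 0, more than in any other library: Eif2s3y, Eif4e1b, Eif4ebp2, Eif4ebp3 and Eif2c1. Over all genes, 10496 symbols were above 0 in the knockdown and 10443 in untreated embryos, the library with the fewest. Of the 44 members with a mean of at least 100 FPKM, 37, or 84.1%, had a highest library less than 4-fold above the lowest, against 58.3% of the 4825 genes past that mean. The median ratio of highest to lowest was 2.45 for these members and 3.47 for all such genes above 0 in every library. The 2 sets are not matched in level, since 22 of the 44 members but 658 of the 4825 genes averaged 1000 FPKM or more. The lowest of the 5 values was in the H3.2 mRNA library for 18 of the 44 members (40.9%, against 23.3% of all such genes) and in the knockdown for 12 (27.3%, against 25.3%). The H3.2 mRNA library also had the smallest sum of FPKM over all genes of the 5.

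Differences between libraries are given as log2(FPKM + 1), the first named library minus the second, which understates them for low genes, and a gene was counted when it differed at least 4-fold, that is by 2 on the log2 scale. The member that missed the minimum of 1 FPKM was Eif2s3y, which leaves 52. In the knockdown against untreated embryos, 0 members were at least 4-fold higher, against 16.8% of all genes past the minimum, and 4 were lower, against 15.6%. Against luciferase 1 was higher, against 9.74% of all genes, and 7 were lower, against 18.9%. Fewer genes are called at high levels, where most members lie. At mean levels of 100 FPKM or more, 2.27% of 44 members and 14.8% of all 4825 genes were called in either direction against untreated, and 6.82% and 12.5% against luciferase. At 1000 FPKM or more it was 0 of 22 members and 2.43% of all genes against untreated, and 4.55% and 7.29% against luciferase. At 2-fold, 2 members were higher than untreated (25.6% of all genes) and 16 lower (29.2%), and 3 were higher than luciferase (21.5%) and 15 lower (32.6%). The median over the 52 members was -0.40 against untreated and -0.43 against luciferase, beside 0.00 and -0.12 for all genes past the minimum. At 100 FPKM or more, the medians against untreated were -0.29 for members and -0.17 for all genes, and at 1000 FPKM or more 0.0073 and 0.12. Against luciferase they were -0.43 and 0.042 at 100 FPKM or more, and -0.43 and 0.20 at 1000 FPKM or more. Both differences use the same knockdown library.

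Measured against each control in turn, 3 members lay 4-fold or more below both in the knockdown, against 6.35% of all genes, and 0 were higher, against 4.98%. Eif4g3, which encodes the second eIF4G scaffold, stood at 186 FPKM with H3.3 mRNA, 156 with H3.2 mRNA, 23.5 in the knockdown, 156 with luciferase and 138 in untreated embryos. The knockdown value lay below the other 4, which ranged from 138 to 186 FPKM, and the differences were -2.50 from untreated and -2.68 from luciferase. Eif4ebp2, an inhibitor of eIF4E, was listed at 0 in the knockdown, with 20.5 FPKM with H3.3 mRNA, 26.4 with H3.2 mRNA, 24.8 with luciferase and 35.9 in untreated embryos. Eif2c1, an argonaute gene, was likewise listed at 0 there, with 14.6 FPKM with H3.3 mRNA, 29.4 with H3.2 mRNA, 24.2 with luciferase and 30.7 in untreated embryos. A listed 0 can be a failed estimate at such levels, and no fold is given for it. At 2-fold, 10 members were lower than both controls (14.3% of all genes) and 0 were higher (11.3%). Beside the 3 these were Eif2c2, Eif2c4, Eif3e, Eif4b, Eif4g2, Eif4h and Eif5b. When the trend with transcript length was removed, as described below, the call against untreated remained for Eif2c4 and Eif3e. It ended for Eif2c2 at -0.56, Eif4b at -0.72, Eif4g2 at -0.47, Eif4h at -0.50 and Eif5b at -0.45.

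By count, the cap-binding complex had the most members on the low side in the knockdown, though by share the argonaute genes, with 4 of 4, were further to that side. Of all 13144 genes past the minimum, 6130 were lower than untreated and 6915 lower than luciferase. Of the 12 genes of the cap complex, 9 were lower than untreated and 8 lower than luciferase, with medians of -0.77 and -0.70. After removal of the trend with transcript length, described below, those medians were -0.20 and -0.34. Eif4b, which stimulates the helicase, stood at 1103 FPKM with H3.3 mRNA, 421 with H3.2 mRNA, 227 in the knockdown, 680.5 with luciferase and 570.0 in untreated embryos. Eif4h, a relative of eIF4B, stood at 2340.1 FPKM with H3.3 mRNA, 2357 with H3.2 mRNA, 918 in the knockdown, 3104 with luciferase and 1838 in untreated embryos. Both were lowest in the knockdown, and Eif4b was highest with H3.3 mRNA. Eif4g2, a scaffold that lacks the part that binds eIF4E, stood at 778 FPKM with H3.3 mRNA, 1558 with H3.2 mRNA, 433 in the knockdown, 1760.2 with luciferase and 903 in untreated embryos. In the knockdown it was 4-fold lower than with luciferase, by -2.02, a call that ended when the median difference of all genes was subtracted, and it was -1.13 with the length trend removed. The major scaffold gene Eif4g1 stood at 772 FPKM with H3.3 mRNA, 431 with H3.2 mRNA, 299.6 in the knockdown, 575 with luciferase and 256 in untreated embryos. It thus lay between the controls in the knockdown, and Eif4g3 made up 7.26% of the sum of both scaffolds there, against 21.3% with luciferase and 34.9% in untreated embryos.

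The other genes of the cap complex varied in different ways. The cap-binding protein gene Eif4e stood at 1923 FPKM with H3.3 mRNA, 1454 with H3.2 mRNA, 2119 in the knockdown, 2708 with luciferase and 3074 in untreated embryos. These 5 values span a range of 2.11-fold. Its oocyte-type paralog Eif4e1b was listed at 0 in 4 libraries and at 18.3 FPKM in untreated embryos, the library with the most oocyte marker RNA. Eif4e2, which encodes a cap-binding protein that does not bind eIF4G well, stood at 638 FPKM with H3.3 mRNA, 595 with H3.2 mRNA, 919 in the knockdown, 469 with luciferase and 998 in untreated embryos. Eif4e3, the third class of cap-binding protein, was listed at 0 with luciferase and stood at 11.4 FPKM with H3.3 mRNA, 34.8 with H3.2 mRNA, 21.5 in the knockdown and 56.7 in untreated embryos. Of the helicase genes, Eif4a1 stood at 2168 FPKM with H3.3 mRNA, 1412 with H3.2 mRNA, 1586 in the knockdown, 2702 with luciferase and 1493 in untreated embryos. Eif4a2 took 18.7% of the sum of Eif4a1 and Eif4a2 with H3.3 mRNA, 34.0% with H3.2 mRNA, 29.0% in the knockdown, 27.2% with luciferase and 36.2% in untreated embryos. Eif4a3, a helicase of the exon junction complex, was the member of this group on the high side, at 2326 FPKM with H3.3 mRNA, 1174 with H3.2 mRNA, 2898 in the knockdown, 1459 with luciferase and 1305 in untreated embryos. It differed by 1.15 from untreated and by 0.99 from luciferase.

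The inhibitors of the cap complex did not share a pattern. Eif4ebp1, the most abundant 4E-BP gene, whose product holds eIF4E until mTOR phosphorylates it, stood at 727 FPKM with H3.3 mRNA, 1175 with H3.2 mRNA, 2568 in the knockdown, 1578 with luciferase and 3168 in untreated embryos. The knockdown lay between the controls, and the add-back libraries lay below all 3. The ratio of Eif4ebp1 to Eif4e FPKM was 0.378 with H3.3 mRNA, 0.808 with H3.2 mRNA, 1.21 in the knockdown, 0.583 with luciferase and 1.03 in untreated embryos. Their transcripts have 1997 and 4991 bases, so this ratio carries the trend with transcript length described below. With that trend removed, the knockdown differed from luciferase by 0.52 for Eif4ebp1 and 0.36 for Eif4e. From untreated it then differed by -0.05 and 0.09. Eif4ebp3, a further 4E-BP gene, was listed at 0 in the knockdown and in untreated embryos and stood at 97.2 FPKM with H3.3 mRNA, 24.8 with H3.2 mRNA and 35.4 with luciferase. Of its transcript, 65.4% of the stretches of 51 bases are also found in 1 other annotated gene, so its reads may be shared. Eif4enif1, which carries eIF4E into the nucleus and into stored RNA granules, stood at 371 FPKM with H3.3 mRNA, 296 with H3.2 mRNA, 144 in the knockdown, 114 with luciferase and 369.8 in untreated embryos. It was low in the knockdown and with luciferase, and the other 3 libraries lay near one another above them.

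**Figure D2:**
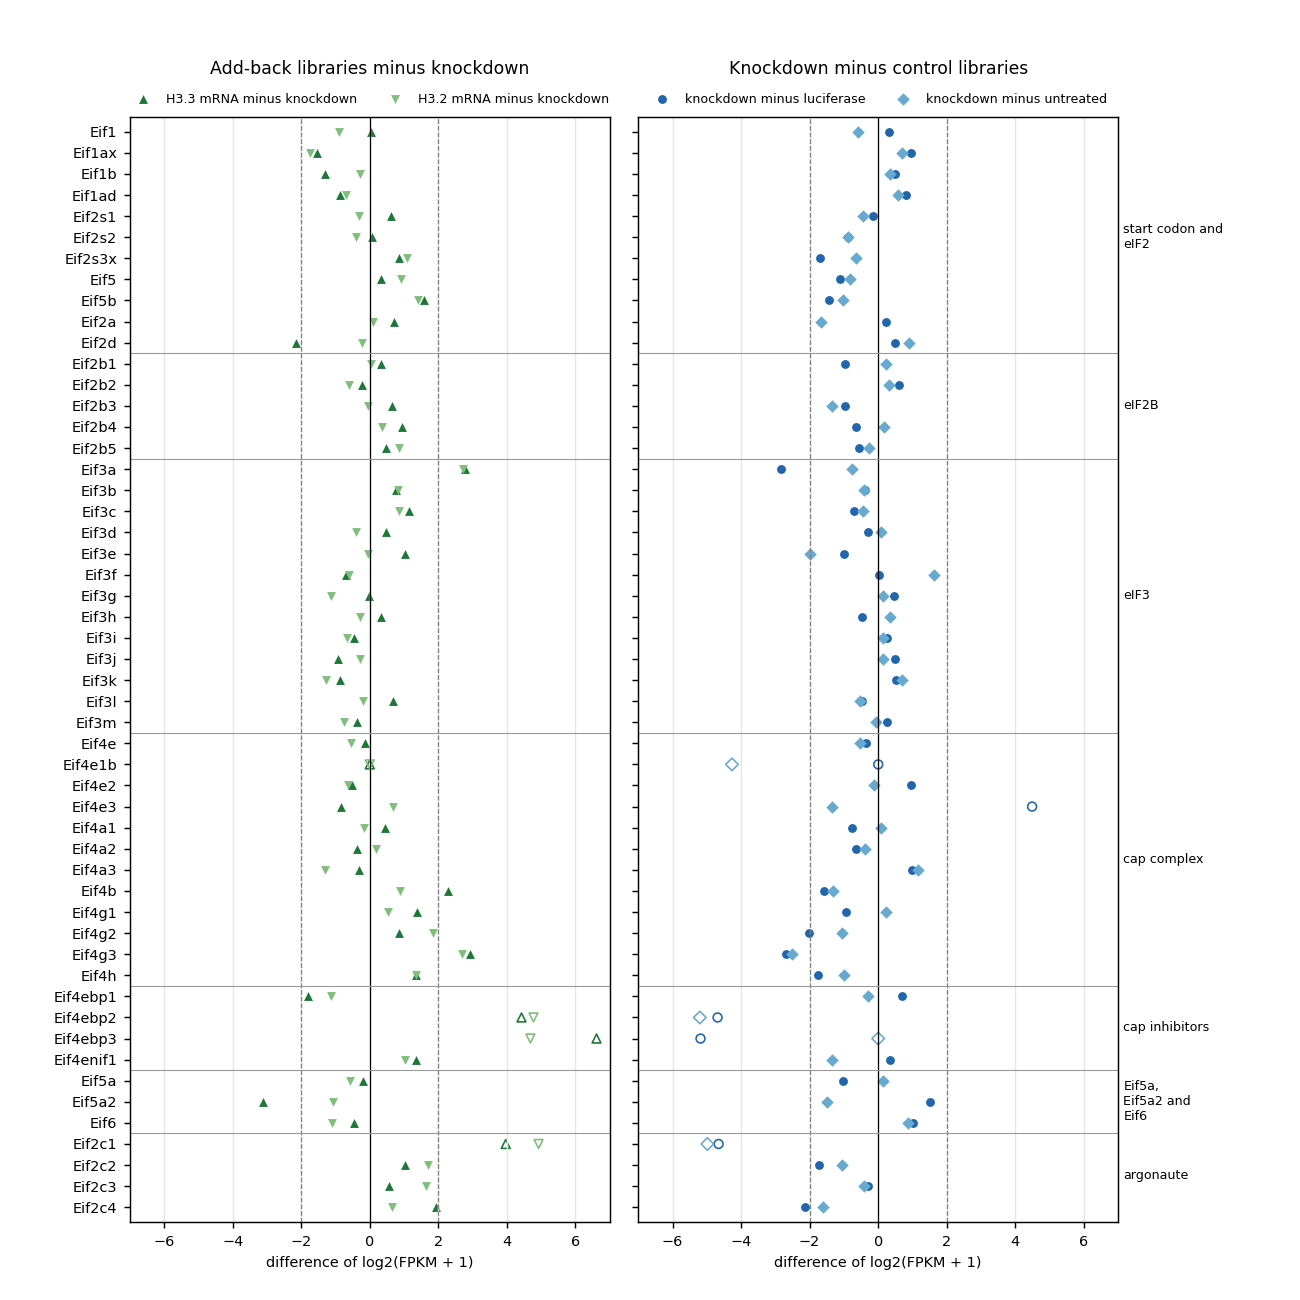
Difference of log2(FPKM + 1) for the 52 members past the minimum, add-back libraries minus knockdown on the left and knockdown minus each control on the right; dashed lines mark 4-fold and open symbols mark a gene listed at 0 in a compared library. Most points lie inside the dashed lines. Eif4g3, and Eif4ebp2 and Eif2c1 with a listed 0 in the knockdown, lie outside them in all 4 comparisons shown. These comparisons share the knockdown library.

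Genes of eIF3 differed in both directions in the knockdown. Of the 13 subunit genes, 7 were higher and 6 lower than untreated (median 0.07, but -0.09 with quantile normalization and -0.05 with the length trend removed), and 6 were higher and 7 lower than luciferase (median -0.31). Eif3a, the gene of the large subunit on which the complex is built, stood at 604 FPKM with H3.3 mRNA, 579.5 with H3.2 mRNA, 86.9 in the knockdown, 629 with luciferase and 148 in untreated embryos. The knockdown and untreated values lay far below the other 3, so that the knockdown differed by -2.84 from luciferase and by -0.76 from untreated, and luciferase was above untreated by 2.08. Eif3e, which encodes a peripheral subunit, stood at 724 FPKM with H3.3 mRNA, 342 with H3.2 mRNA, 357 in the knockdown, 719.6 with luciferase and 1426 in untreated embryos. Eif3f, another peripheral subunit gene, was lowest in untreated embryos, at 679 FPKM with H3.3 mRNA, 712 with H3.2 mRNA, 1089.9 in the knockdown, 1073 with luciferase and 348 in untreated embryos. For Eif3f the knockdown thus differed from untreated by 1.64 and from luciferase by 0.02. Eif3k, a small peripheral subunit, was highest in the knockdown, at 2934 FPKM with H3.3 mRNA, 2231 with H3.2 mRNA, 5414 in the knockdown, 3810.2 with luciferase and 3331 in untreated embryos.

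The eIF3 subunit genes differed in level within a library. FPKM is scaled per length, but differences between libraries also moved with length, as described below, so ratios of levels between genes of unequal length carry that trend. Eif3g, an RNA-binding subunit, was the most abundant one in every library, at 7638 FPKM with H3.3 mRNA, 3500.2 with H3.2 mRNA, 7729.8 in the knockdown, 5646 with luciferase and 6967 in untreated embryos. The highest subunit was above the lowest by 22.4-fold with H3.3 mRNA, 10.2-fold with H3.2 mRNA, 88.9-fold in the knockdown, 12.2-fold with luciferase and 47.1-fold in untreated embryos. In the knockdown and in untreated embryos the lowest was Eif3a, with H3.3 mRNA and luciferase it was Eif3j, and with H3.2 mRNA it was Eif3e. The core subunit gene Eif3b stood at 1507 FPKM with H3.3 mRNA, 1566 with H3.2 mRNA, 889 in the knockdown, 1153 with luciferase and 1179 in untreated embryos. Another, Eif3c, stood at 4001 FPKM with H3.3 mRNA, 3269 with H3.2 mRNA, 1796 in the knockdown, 2951 with luciferase and 2447 in untreated embryos. Both core genes were lowest in the knockdown, within a range of 1.76-fold for Eif3b and 2.23-fold for Eif3c. The remaining subunit genes Eif3d, Eif3h, Eif3i, Eif3j, Eif3l and Eif3m each had a highest library at most 1.92-fold above the lowest.

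**Figure D3:**
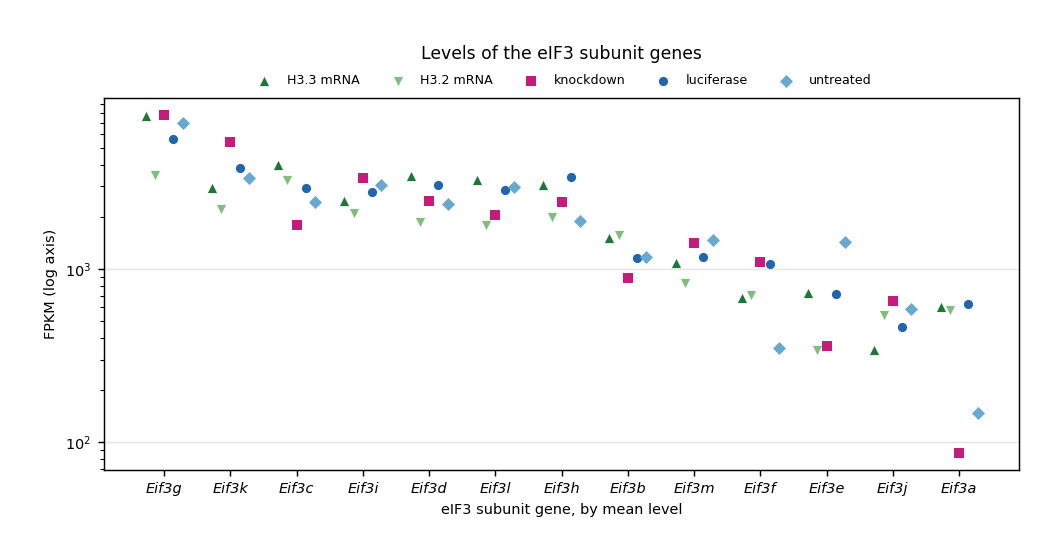
FPKM on a log axis for the 13 eIF3 subunit genes, ordered by their mean level, with 1 symbol per library. Eif3g stands highest at 3500.2 to 7729.8 FPKM, and Eif3a is lowest in the knockdown at 86.9 FPKM and in untreated embryos at 148 FPKM.

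Genes of eIF2 and of start codon choice had medians of -0.59 against untreated and 0.24 against luciferase in the knockdown. With the length trend removed, these medians were -0.11 and -0.45. Of these 11 genes, 5 were below both controls and 4 above both, beside 3914 below both and 3526 above both of the 13144 genes past the minimum. Eif1ax, which encodes the X-linked eIF1A, had the highest single value of the group, in the knockdown, at 1256 FPKM with H3.3 mRNA, 1086 with H3.2 mRNA, 3627 in the knockdown, 1861 with luciferase and 2262 in untreated embryos. The knockdown lay above both controls by 0.68 and 0.96, and both add-back libraries lay below the controls. Eif1, whose product helps the ribosome scan for the start codon, stood at 860.4 FPKM with H3.3 mRNA, 446 with H3.2 mRNA, 839 in the knockdown, 679 with luciferase and 1259 in untreated embryos. Its paralog Eif1b took 30.5% of the sum of the pair with H3.3 mRNA, 63.2% with H3.2 mRNA, 52.8% in the knockdown, 49.7% with luciferase and 37.0% in untreated embryos. Eif5b, the GTPase that joins the ribosomal subunits, stood at 1017 FPKM with H3.3 mRNA, 902 with H3.2 mRNA, 339 in the knockdown, 927 with luciferase and 687 in untreated embryos. Eif5, which triggers GTP hydrolysis on eIF2, stood at 781 FPKM with H3.3 mRNA, 1173 with H3.2 mRNA, 618 in the knockdown, 1354 with luciferase and 1084 in untreated embryos. Both were lowest in the knockdown. Eif2s2, the gene of eIF2 beta, stood at 1372 FPKM with H3.3 mRNA, 991 with H3.2 mRNA, 1319 in the knockdown, 2451 with luciferase and 2453 in untreated embryos, whereas Eif2s1, the gene of the alpha subunit that stress kinases phosphorylate, ranged from 341 to 649 FPKM. The controls were alike for Eif2s2 and the other 3 libraries lay below them.

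Eif2a and Eif2d are not subunits of eIF2 but bring tRNA to the ribosome in other ways. Eif2a stood at 887 FPKM with H3.3 mRNA, 578 with H3.2 mRNA, 546 in the knockdown, 464 with luciferase and 1730.2 in untreated embryos, with untreated embryos alone on the high side. Eif2d stood at 302 FPKM with H3.3 mRNA, 1151 with H3.2 mRNA, 1343 in the knockdown, 948 with luciferase and 720.1 in untreated embryos, with the H3.3 mRNA library alone on the low side. Eif1ad, related to eIF1A by a domain, ranged from 521 FPKM with H3.3 mRNA to 946 FPKM in the knockdown. The 5 genes of eIF2B stayed close to one another in level, with the highest 1.87-fold above the lowest with H3.3 mRNA, 1.91-fold with H3.2 mRNA, 2.07-fold in the knockdown, 3.63-fold with luciferase and 3.67-fold in untreated embryos. Their medians in the knockdown were 0.18 against untreated and -0.64 against luciferase, and 0 of the 5 differed by 4-fold in any of the 7 comparisons. Eif2b3 had the lowest difference, -1.35 from untreated, at 1111 FPKM with H3.3 mRNA, 683 with H3.2 mRNA, 704 in the knockdown, 1388 with luciferase and 1790.0 in untreated embryos. Eif2b1 was highest with luciferase, at 1432 FPKM with H3.3 mRNA, 1177 with H3.2 mRNA, 1139.6 in the knockdown, 2254 with luciferase and 978 in untreated embryos.

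Eif6, which keeps the large ribosomal subunit from joining too early, was higher in the knockdown than in either control, by 0.86 against untreated and by 1.01 against luciferase on the log2 scale. With the length trend removed, as described below, Eif6 was at 0.74 and 0.46. Its level was 3771 FPKM with H3.3 mRNA, 2432 with H3.2 mRNA, 5245 in the knockdown, 2603 with luciferase and 2897 in untreated embryos. Eif5a2, a paralog of Eif5a, was at most 0.365% of the sum of the pair and stood at 0.67 FPKM with H3.3 mRNA, 5.88 with H3.2 mRNA, 13.5 in the knockdown, 4.07 with luciferase and 39.8 in untreated embryos. At such levels 4-fold differences rest on little signal, and this member passed 4-fold in 3 of the 7 comparisons. The argonaute genes were lower in the knockdown for 4 of 4 members against each control, with medians of -1.34 against untreated and -1.94 against luciferase. Of all genes past the minimum, 6130 of 13144 were lower than untreated and 6915 lower than luciferase. The argonaute transcripts are long, 6537 to 15595 bases, and removal of the length trend gave medians of -0.78 and -1.05, while Eif2c3 turned to 0.10 against untreated and 0.65 against luciferase. The genes used for that step averaged at least 50 FPKM, more than Eif2c1, Eif2c3 and Eif2c4. The longest of their 12 bins had a median of 7058 bases. Eif2c2 and Eif2c3, with 13800 and 15595 bases, were thus set against many shorter genes. Eif2c2, the main slicing argonaute, stood at 113 FPKM with H3.3 mRNA, 179.6 with H3.2 mRNA, 55.1 in the knockdown, 185 with luciferase and 117 in untreated embryos. Eif2c4 stood at 51.1 FPKM with H3.3 mRNA, 20.5 with H3.2 mRNA, 12.6 in the knockdown, 59.3 with luciferase and 40.5 in untreated embryos. Eif2c3 was highest at 21.3 FPKM with H3.2 mRNA and lowest at 6.08 FPKM in the knockdown. Summed over the 4 genes, argonaute FPKM was 188 with H3.3 mRNA, 251 with H3.2 mRNA, 73.8 in the knockdown, 276 with luciferase and 196 in untreated embryos.

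The promoter sequences of some members that were lowest or highest by FPKM in the knockdown are shown for reference. They come from RefSeq on GRCm38.p6, a build other than the mm9 used for the FPKM values. RefSeq promoters were matched for 42 of the 53 members. Each window runs 5′ to 3′ from 100 bases before the annotated start to 20 after it, in lower case, and capitals mark a GC box (GGGCGG), an ETS motif (CCGGAAG), an E-box (CACGTG) or a TATA motif (TATAAA) on either strand. Eif3a, Eif4b, Eif4h and Eif5b were lowest in the knockdown of the 5 libraries, Eif1ax, Eif3f, Eif3k and Eif4a3 highest. Other members, such as Eif4g3, were also lowest there and are not shown. This split is by FPKM alone, and Eif3f lay only 0.02 above luciferase. With the length trend removed, as described below, Eif3a was at -0.13 against untreated and Eif3k at -0.47 against luciferase.
Eif3a (chr19:60790674-60790793, minus strand): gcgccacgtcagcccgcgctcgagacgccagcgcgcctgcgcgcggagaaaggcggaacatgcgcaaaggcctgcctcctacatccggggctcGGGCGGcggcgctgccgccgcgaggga
Eif4b (chr15:102073673-102073792, plus strand): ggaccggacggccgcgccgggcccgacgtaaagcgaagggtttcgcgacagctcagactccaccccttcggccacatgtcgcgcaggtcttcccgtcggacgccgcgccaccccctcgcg
Eif4h (chr5:134639390-134639509, minus strand): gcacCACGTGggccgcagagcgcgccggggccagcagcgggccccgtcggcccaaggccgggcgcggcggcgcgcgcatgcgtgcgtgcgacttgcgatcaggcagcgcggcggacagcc
Eif5b (chr1:37997910-37998029, plus strand): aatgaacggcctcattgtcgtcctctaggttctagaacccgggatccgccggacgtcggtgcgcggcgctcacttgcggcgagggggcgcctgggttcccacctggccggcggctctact
Eif1ax (chrX:159372078-159372197, plus strand): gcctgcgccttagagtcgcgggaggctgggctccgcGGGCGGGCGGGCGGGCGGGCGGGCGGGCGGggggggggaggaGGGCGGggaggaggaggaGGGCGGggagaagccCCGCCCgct
Eif3f (chr7:108934315-108934434, plus strand): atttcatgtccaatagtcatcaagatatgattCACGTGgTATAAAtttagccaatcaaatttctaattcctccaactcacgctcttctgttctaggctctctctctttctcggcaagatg
Eif3k (chr7:28981869-28981988, minus strand): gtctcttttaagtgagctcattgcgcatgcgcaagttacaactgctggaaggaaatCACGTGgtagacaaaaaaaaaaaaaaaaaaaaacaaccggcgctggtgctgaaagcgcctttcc
Eif4a3 (chr11:119300024-119300143, minus strand): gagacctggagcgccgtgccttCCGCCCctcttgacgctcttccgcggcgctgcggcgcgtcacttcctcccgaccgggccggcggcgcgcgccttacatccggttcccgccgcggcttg

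Over the whole promoter of 300 bases, 250 before the start and 50 after it, 33 of the 42 members held a GC box (78.6%, against 35.9% of 27025 RefSeq promoters), 14 an ETS motif (33.3%, against 9.12%), 8 an E-box (19.0%, against 7.24%) and 4 a TATA motif (9.52%, against 14.2%). An E-box stands in the windows of Eif4h, Eif3f and Eif3k, which lie on both sides of the split, and that of Eif1ax holds a run of overlapping GC boxes. Transcripts of many translation factors start with a terminal oligopyrimidine tract, through which mTOR and LARP1 control their translation. By the annotated start, a C followed by 4 pyrimidines was found for 2 of the 42 members (4.76%, against 2.49% of all promoters), Eif3f and Eif2s3x. The count depends on the annotated base, and a match in letters is not a site in use.

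The library with H3.3 mRNA was then set against the knockdown, which serves in both the earlier and this comparison. Of the 52 members 6 were at least 4-fold higher (16.4% of all genes) and 2 lower (10.1%), with a median of 0.39 beside 0.00 for all genes. The 6 were Eif3a, Eif4b and Eif4g3, with differences of 2.78, 2.27 and 2.93, and Eif4ebp2, Eif4ebp3 and Eif2c1, which are listed at 0 in the knockdown. The 2 lower members were Eif2d and Eif5a2, with -2.15 and -3.12. For Eif2d, quantile normalization gave -1.86. At 2-fold, 14 members were higher (29.4% of all genes) and 5 lower (21.7%). The 14 included Eif5b, Eif3c, Eif3e, Eif4g1, Eif4h, Eif4enif1, Eif2c2 and Eif2c4, and the 5 included Eif1ax at -1.53, Eif1b at -1.31 and Eif4ebp1 at -1.82. With the length trend removed, the calls of Eif5b, Eif3c, Eif4g1, Eif4enif1 and Eif2c2 ended at 0.66, 0.71, 0.57, 0.85 and 0.07. That of Eif1b ended at -0.30. The 2-fold calls of Eif3e, Eif4h, Eif2c4, Eif1ax and Eif4ebp1 remained.

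With H3.2 mRNA, 5 members were at least 4-fold higher than in the knockdown (19.5% of all genes) and 0 lower (9.11%). Eif3a and Eif4g3 differed by 2.72 and 2.68, and Eif4ebp2, Eif4ebp3 and Eif2c1 were again above a listed 0. This comparison and that of H3.3 mRNA share the knockdown library. The median of the members was -0.05 beside 0.15 for all genes, but it was 0.10 with upper-quartile scaling and 0.50 with quantile normalization. At 2-fold, 12 members were higher (33.5% of all genes) and 7 lower (21.4%). The 7 were Eif1ax at -1.74, Eif3g at -1.14, Eif3k at -1.28, Eif4a3 at -1.30, Eif4ebp1 at -1.13, Eif5a2 at -1.08 and Eif6 at -1.11. With the length trend removed, Eif3g turned to 0.11 and Eif3k to 0.24, and the 2-fold calls of Eif4a3, Eif4ebp1 and Eif6 ended at -0.58, -0.93 and -0.38. Of the 13 eIF3 genes, 10 were lower with H3.2 mRNA (median -0.29, but 0.20 with quantile normalization and 0.29 with the length trend removed), against 6 with H3.3 mRNA (median 0.33).

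Set against each other, the add-back libraries differed at few of these genes. With H3.3 mRNA 0 members were at least 4-fold higher than with H3.2 mRNA (8.38% of all genes), and 1 was lower (12.6%), the scarce Eif5a2. At 2-fold 5 were higher (18.9%) and 6 lower (24.2%). Eif4ebp3, Eif4b, Eif2c4, Eif3g and Eif3e were highest, at 1.93, 1.39, 1.28, 1.13 and 1.08, and Eif2d, Eif4e3, Eif2c3 and Eif1b lay at -1.93, -1.52, -1.11 and -1.02. The median of 0.27 beside 0.00 for all genes became -0.16 with quantile normalization. At 1000 FPKM or more the medians were 0.39 for members and 0.40 for all genes. Both libraries whose source name reads SCNT, H3.2 mRNA and luciferase, were also compared. Against luciferase 1 member was at least 4-fold higher with H3.2 mRNA (10.4% of all genes), Eif4e3 with its listed 0, and 0 were lower (9.84%). The median was -0.35 beside 0.00, and 0.05 with quantile normalization, with Eif5a at -1.62, Eif2c4 at -1.49, Eif2s2 at -1.31, Eif3e at -1.07 and Eif2b3 at -1.02 at the low end and Eif2c3 and Eif4enif1 both at 1.37 at the high end.

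The controls also differed from each other at these genes. With luciferase 2 members were at least 4-fold higher than in untreated embryos (23.5% of all genes), Eif3a by 2.08 and Eif4ebp3 above a listed 0, and 3 were lower (13.4%), Eif5a2 by -3.01 and Eif4e1b and Eif4e3, both listed at 0 with luciferase. At 2-fold 7 were higher (34.2%) and 7 lower (25.8%). The median was -0.02 beside 0.02, and 0.25 with upper-quartile scaling. Eif3f, Eif2b1 and Eif5a lay at 1.62, 1.20 and 1.17 in luciferase minus untreated, and Eif2a and Eif4enif1 at -1.90 and -1.69. Source names read SCNT for luciferase, as for H3.2 mRNA, and NT for the other 3 libraries, and what that marks cannot be told apart from the groups. Within the NT libraries the knockdown could be compared with untreated embryos and with H3.3 mRNA, and those values are given above.

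Across the 52 members, the levels of 2 libraries correlated with Pearson's r of 0.845 to 0.958 on the log2 scale, against 0.740 to 0.835 over all genes past the minimum. Genes are not independent replicates, and genes at 0 weigh on these values. Over the members, the knockdown correlated best with untreated embryos (0.937), and the H3.3 mRNA library with that of H3.2 mRNA (0.958) and with luciferase (0.957). Over all genes past the minimum the knockdown correlated least with untreated embryos (0.751). It stood there at 0.803 with H3.3 mRNA, 0.805 with H3.2 mRNA and 0.799 with luciferase.

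Transcript length moved with the differences between libraries. Among the 44 members with a mean of at least 50 FPKM, Spearman's rank correlation of the length of the longest coding transcript with the difference was -0.47 for the knockdown against untreated and -0.45 against luciferase, and 0.46 for H3.3 mRNA and 0.64 for H3.2 mRNA against the knockdown. Over the 6391 genes at such levels the values were -0.23, -0.42, 0.47 and 0.56. These 4 comparisons share the knockdown library. In those without it, the correlation over members was -0.35 for H3.3 mRNA against H3.2 mRNA, 0.29 for H3.2 mRNA against luciferase and 0.18 for luciferase against untreated, beside -0.15, 0.21 and 0.13 over all such genes. The 22 members of 2555 bases or more had a median of -0.60 against untreated and -0.83 against luciferase in the knockdown, with 17 and 16 of them lower. The 22 shorter members had medians of 0.14 and 0.13, with 8 and 10 of them lower. Among long transcripts, Eif4g3 (8134 bases), Eif5b (7797 bases) and Eif3a (5125 bases), lay on the low side in the knockdown, while the short Eif3k (909 bases) and Eif6 (1500 bases) lay on the high side. Exceptions lay on both sides. Eif1ax, with 5172 bases, and Eif2d, with 3316 bases, had values above both controls. The short Eif3e (1506 bases) lay below both, at -1.996 against untreated and -1.01 against luciferase.

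The trend was then removed by subtracting from each member the median difference of the 500 genes nearest in length. Those genes were taken from the 6391 with a mean of at least 50 FPKM, also for members below that level. This step was chosen after the values were seen. Eif4g3 became -1.94 against untreated and -1.77 against luciferase, just short of 4-fold. Eif3a stayed at -2.17 against luciferase and became -0.13 against untreated. The short Eif3e became -2.11 against untreated, past 4-fold, and -1.55 against luciferase. For H3.3 mRNA against the knockdown Eif3a, Eif4g3 and Eif4b became 2.02, 2.01 and 1.72. For H3.2 mRNA against the knockdown Eif3a became 1.91 and Eif4g3 1.58, so that both 4-fold calls ended. Eif1ax, in contrast, became 1.31 and 1.66 for the knockdown against untreated and luciferase, and -2.30 and -2.56 for H3.3 mRNA and H3.2 mRNA against the knockdown. The median of the members became -0.10 against untreated and -0.47 against luciferase. What length stands for in these libraries was not tested.

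**Figure D4:**
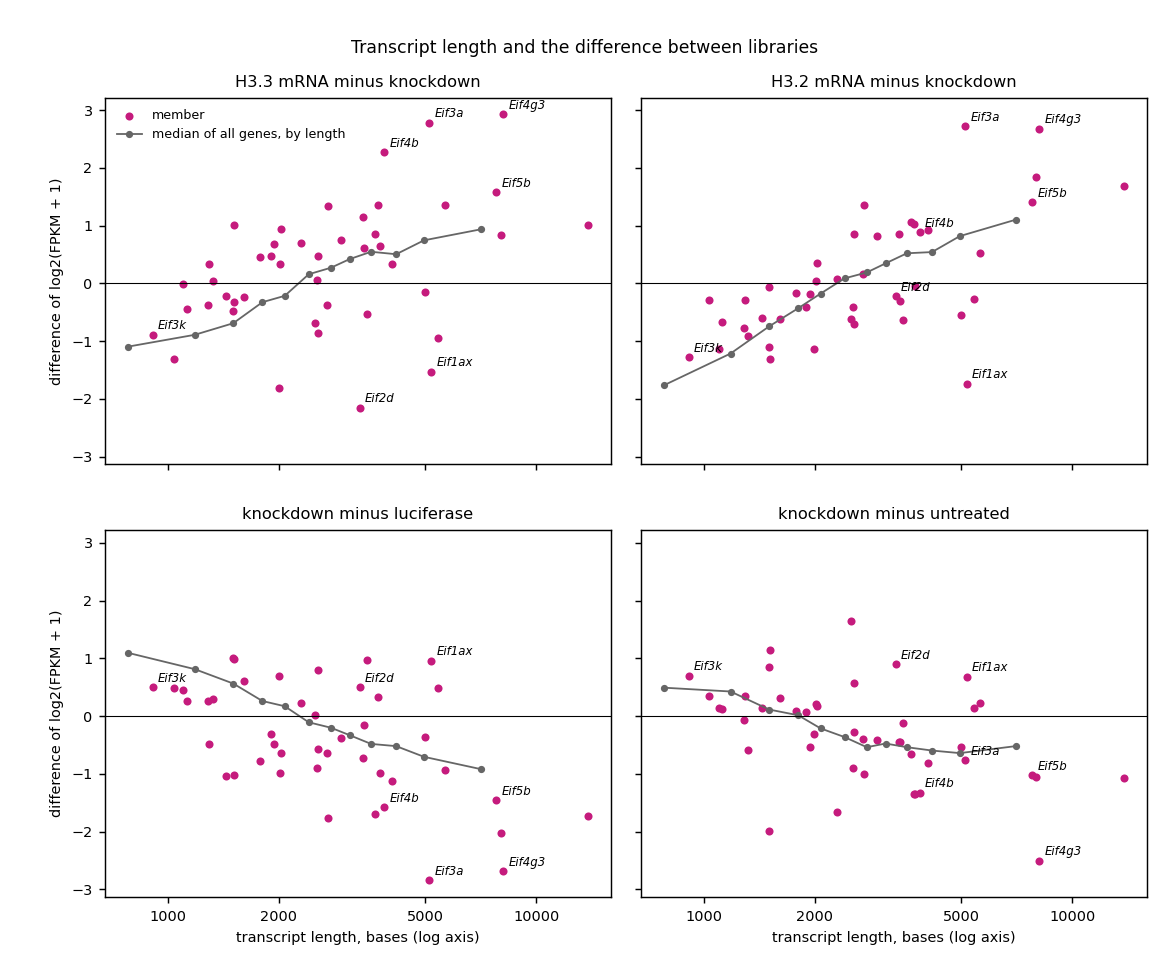
Transcript length in bases on a log axis against the difference of log2(FPKM + 1) for the 44 members with a mean of at least 50 FPKM, in 4 comparisons; the grey line joins the medians of all 6391 genes at such levels in 12 bins of length. Spearman's correlation over the members lies between -0.47 and 0.64, and Eif3a in the knockdown against luciferase, at -2.17 relative to the genes nearest in length, is far from the line.

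Near-identical copies limit some of these values. For 25 of the 53 members no stretch of 51 bases, the read length of these libraries, is found in the annotated transcripts of another gene. For 10 members over 20% of the stretches are shared, the most for Eif4ebp3 at 65.4% and Eif4a1 at 65.1%, followed by Eif3j at 39.7%, Eif3m at 36.6%, Eif2s3x at 36.1% and Eif1 at 31.3%. Eif3e, Eif3h, Eif4a3 and Eif2s2 shared 21.2%, 25.7%, 23.6% and 27.6%. The sources used here do not say how such reads were assigned, so these levels are uncertain. Eif3a, Eif4g3, Eif4h, Eif5b, Eif1ax, Eif2d and Eif3k shared none.

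Other genes of translation were read in the same way, 37 genes of which 35 passed the minimum. Relative to untreated embryos, the knockdown had 3 of them 4-fold or more above (8.57%, against 16.8% of all genes) and 5 below (14.3%, against 15.6%). Relative to luciferase 1 lay above (2.86%, against 9.74%) and 2 below (5.71%, against 18.9%), with medians of -0.58 against untreated and -0.26 against luciferase. Larp1, which binds the 5′ end of ribosomal and translation factor mRNAs, was at least 4-fold lower than both controls, at 563 FPKM with H3.3 mRNA, 289 with H3.2 mRNA, 36.2 in the knockdown, 343 with luciferase and 171 in untreated embryos. Eef2, the translocating elongation factor, stood at 8590.0 FPKM with H3.3 mRNA, 5252 with H3.2 mRNA, 2006 in the knockdown, 10949.7 with luciferase and 4754 in untreated embryos. Both were lowest in the knockdown. Pdcd4, an inhibitor of eIF4A, was the gene of this list at least 4-fold higher than both controls, at 3.19 FPKM with H3.3 mRNA, 38 with H3.2 mRNA, 49.8 in the knockdown, 4.94 with luciferase and 0 in untreated embryos. The heme-regulated eIF2 kinase gene Eif2ak1 stood at 112 FPKM with H3.3 mRNA, 72.3 with H3.2 mRNA, 38.5 in the knockdown, 153 with luciferase and 296 in untreated embryos. Pelo, a ribosome rescue factor, was listed at 0 in untreated embryos only, and Pabpc1l, the poly(A)-binding protein of oocytes, stood at 53.8 FPKM there and at most 3.96 FPKM elsewhere.

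With H3.3 mRNA, 5 of the 35 other genes lay 4-fold or more above the knockdown (14.3%, against 16.4% of all genes) and 1 below (2.86%, against 10.1%). With H3.2 mRNA 4 lay above (11.4%, against 19.5%) and 0 below (against 9.11%), with medians of 0.65 for H3.3 mRNA and 0.52 for H3.2 mRNA. Larp1 differed by 3.92 with H3.3 mRNA and by 2.96 with H3.2 mRNA. The termination factor gene Gspt2 stood at 60.1 FPKM with H3.3 mRNA, 86.6 with H3.2 mRNA, 17.7 in the knockdown, 38.3 with luciferase and 15.1 in untreated embryos, and the kinase gene Eif2ak3, which senses stress in the endoplasmic reticulum, at 66.5 FPKM with H3.3 mRNA, 71.3 with H3.2 mRNA, 14.1 in the knockdown, 53.7 with luciferase and 10.4 in untreated embryos. For both, the knockdown lay below the add-back libraries and close to untreated embryos. Cpeb1, which holds maternal mRNAs in check in oocytes, was listed at 0 in the knockdown and with luciferase, and stood at 4.77 FPKM with H3.3 mRNA, 45.5 with H3.2 mRNA and 2.81 in untreated embryos.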

How the data were processed

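Total RNA went into Illumina TruSeq libraries, and the labels' protocols give single-end sequencing of 51 bases. Per the submitters' processing notes, the authors used TopHat and Cufflinks with mm9 (no version is listed) for the deposited FPKM values. Because FPKM is relative, a few abundant transcripts can shift all others. Each table lists 22026 symbols, none more than once. A search of genes under 20 FPKM for steps worth 1 read found none, since the fullest bin of 0.1 log2 units held at most 3.09% of genes in any pair of libraries, so no interval that needs depth is given.

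The members and lists were chosen with earlier results of these data known. Genes averaging 1 FPKM or more were compared as log2(FPKM + 1), and 4-fold was the call; with 1 library per group no test was run. Members are named if at 0 in some libraries, 4-fold apart in a comparison, among the 10 most abundant, in a paralog pair, or among the 5 highest or lowest of a comparison; some others of a complex are named beside them. Transcript length and shared stretches of 51 bases come from the GENCODE M21 transcripts, longest coding transcript per gene; older symbols were matched through RefSeq synonyms, and all 53 members matched. Counting was tested on simulated fold changes. Python 3.11.15, pandas 2.3.3 and numpy 2.4.6 were used.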

Additional observations from a re-analysis of the deposited data

How the results depend on the processing

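No paired analysis was possible because the labels give no replicate numbers and each group has 1 library. No direction of a member at least 4-fold apart reversed under other pseudocounts, scalings or the length correction, while some smaller differences did, such as Eif3g, Eif3k and Eif2c3 with the length trend removed. A pseudocount of 0.1, no filter, a filter at 10 FPKM and subtraction of the median difference moved no count by over 1.5 times and no median by over 0.25. Counts of members rest on few genes, several of them listed at 0, and depth is unknown, so levels near 0 limit them most.

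A call at 2-fold gave 2 members higher and 16 lower for knockdown against untreated, 3 and 15 for knockdown against luciferase, 7 and 7 for luciferase against untreated, 14 and 5 for H3.3 mRNA against knockdown, 12 and 7 for H3.2 mRNA against knockdown, 5 and 6 for H3.3 mRNA against H3.2 mRNA, 3 and 5 for H3.2 mRNA against luciferase, and 10 lower than both controls. Without the argonaute symbols and cap inhibitors, 2 were lower in the knockdown than untreated, 3 lower than luciferase and 1 lower than both, 1 was higher with luciferase than untreated, and above the knockdown stood 3 for H3.3 mRNA and 2 for H3.2 mRNA. Over genes above 0 in every library, the knockdown had 1 lower than untreated, 0 higher and 4 lower than luciferase and 1 lower than both; luciferase had 1 higher and 1 lower than untreated; H3.3 mRNA had 3 and H3.2 mRNA 2 higher than the knockdown, and H3.2 mRNA 0 higher than luciferase.

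For members with a mean of at least 100 FPKM, an alternative chosen after seeing the data, the knockdown had 1 lower than untreated, 0 higher and 3 lower than luciferase and 1 lower than both; luciferase had 1 higher and 0 lower than untreated; H3.3 mRNA had 3 higher and 1 lower than the knockdown and 0 lower than H3.2 mRNA; H3.2 mRNA had 2 higher than the knockdown and 0 higher than luciferase. A pseudocount of 10 gave 0 higher and 4 lower for knockdown against luciferase, 1 lower than both controls, 1 lower for luciferase against untreated, 1 lower for H3.3 mRNA against knockdown, 2 higher for H3.2 mRNA against knockdown and 0 lower for H3.3 mRNA against H3.2 mRNA.

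With the length trend removed, also chosen after seeing the data, the median for knockdown against untreated was -0.10 and for H3.2 mRNA against knockdown 0.26; 2 were higher and 4 lower for knockdown against luciferase, 1 higher for luciferase against untreated, 3 higher and 1 lower for H3.2 mRNA against knockdown and 0 lower for H3.3 mRNA against H3.2 mRNA. Quantile normalization gave 2 higher for knockdown against luciferase, 1 lower for H3.3 mRNA and 1 lower for H3.2 mRNA against knockdown, 1 higher for H3.3 mRNA against H3.2 mRNA, and medians of 0.50 for H3.2 mRNA against knockdown, -0.16 for H3.3 mRNA against H3.2 mRNA and 0.051 for H3.2 mRNA against luciferase. Upper-quartile scaling gave a median of 0.25 for luciferase against untreated and 2 lower for H3.3 mRNA against H3.2 mRNA. Scaling moved the median of all genes by over 0.1 in places, to 0.28 for luciferase against untreated, 0.36 for H3.2 mRNA against knockdown, -0.13 for H3.3 mRNA against H3.2 mRNA and 0.11 for H3.2 mRNA against luciferase with upper-quartile scaling, to 0.19 for knockdown against untreated, 0.14 for luciferase against untreated and 0.041 for H3.2 mRNA against knockdown with the median difference subtracted, and to 0.00 for knockdown against luciferase and 0.049 for H3.2 mRNA against knockdown with quantile normalization. Without scaling these medians were 0.00 for knockdown against untreated, -0.12 for knockdown against luciferase, 0.025 for luciferase against untreated, 0.15 for H3.2 mRNA against knockdown and 0.00 for the other comparisons. Beyond what each construction sets, the cause was not tested. Of 364 differences of single members, 14 lost their 4-fold call with a pseudocount of 10 and 9 with the length trend removed. With that trend removed, 4 others gained a call. Quantile normalization added 6 calls and ended 2.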
